A study of Mus musculus with 9 samples.

Results

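The 10 genes described here, *Glul*, *Slc1a3*, *Aqp4*, *Kcnj10*, *Car14*, *Abca8a*, *Slc38a3*, *Dio2*, *Col9a1* and *Spc25*, are genes of Müller glia homeostasis, chosen by name among the 37725 genes of a single-cell RNA-sequencing matrix of the mouse retina, and all 10 were in it. The RNA molecules counted for each gene (UMIs, unique molecular identifiers) were summed per mouse over cells gated as Müller glia, as retinal pigment epithelium (RPE), as astrocytes and as 9 other cell types. The gates used UMIs of marker genes, and none of the 10 genes is a marker.

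The matrix holds 31089 cells from 9 mice, and both retinas of a mouse were pooled as 1 sample. Every mouse was RPE65-ERT2-Cre.miR-211fl.miR-204fl, so the controls also carried Cre and the floxed alleles. The control mice (S01 to S04) received corn oil, and the dKO mice (S05 to S09, knockout of miR-204 and miR-211) received tamoxifen at 75 mg/kg in corn oil, on 5 consecutive days from postnatal day 28, and all were taken 6 months later. The Cre driver is specific to the RPE, so the deletion was aimed at RPE cells and not at Müller glia. Only the dKO mice received tamoxifen, so effects of the drug and of the deletion cannot be told apart here. The paper names Cre-negative mice given tamoxifen as its controls, whereas the labels of S01 to S04 give corn oil. It reports no difference in retinal phenotype between such mice and Cre-positive mice given vehicle. The microRNAs themselves have no row in the matrix, so the deletion was not checked here. By the methods of the study, its mice carry the M450 form of RPE65. The labels give S06 and S07 a shared animal number, but their sex-linked RNA differed and they were counted as different mice.

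Müller glia are the radial glia of the retina, which span its whole thickness and contact every neuron. They take up glutamate after its release at synapses and turn it into glutamine, lead potassium and water away from active neurons, buffer acid, and hold enzymes of thyroid hormone metabolism. The RPE, the pigmented epithelium behind the photoreceptors, shares part of this work at the opposite face of the photoreceptors.

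Of all cells, 2235 (7.19%) passed the Müller gate, with a median of 14704 UMIs per cell, 322 passed the RPE gate, with a median of 17325.5, 84 were gated as astrocytes, and 23105 to the other 9 types (rods, cones, bipolar, amacrine, ganglion and horizontal cells, microglia, endothelial cells and pericytes). A further set of 6 Müller markers that the gate did not use (*Gpr37*, *Mlc1*, *Prdx6*, *Acsl3*, *Hes1* and *Cp*) was also passed by 95.2% of the Müller cells, and a further set of 5 RPE markers by 70.8% of the RPE cells. No cell barcode was shared between mice, and depth ran from 15079143 to 66528160 UMIs per mouse. S04, S05 and S07 stood apart as rod-rich. Their median over all cells was 4775 to 5412.5 UMIs per cell beside 8118 to 10340 in the other 6 mice, although the total of S07 was the second highest and its Müller cells, with a median of 14079.5 UMIs, were as deep as those of other mice. Their Müller cells were 0.812% to 2.41% of cells beside 8.09% to 11.8% in the other 6 mice, and rod markers took 0.122% to 0.140% of their Müller UMIs beside 0.0328% to 0.0530%. Müller cells of these mice also held Y-linked RNA without *Xist* in 50.0% to 63.6% of cells, whereas 91.0% to 95% of Müller cells of the other 6 mice held *Xist* without Y-linked RNA. Sex, rod content and the median depth over all cells therefore cannot be told apart in these mice. In the RPE, S04 had 0 cells of 2711 (at most 0.111%, the limit that 0 allows) and S05 had 3, so RPE values come from 3 control and 4 dKO mice with at least 10 cells. S07 gave only 10 RPE cells with 35022 UMIs, and 5 of these cells held *Xist* without Y-linked RNA, unlike its Müller cells, so RPE results are given with and without it.

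The deleted microRNAs are shown because 3 of the genes carry their seed match in the 3′-UTR. The mature sequences (RefSeq, GRCm38.p6) are 22 bases long, differ at 1 position and share the seed, bases 2 to 8, in capitals.
mmu-miR-204-5p: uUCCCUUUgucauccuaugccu
mmu-miR-211-5p: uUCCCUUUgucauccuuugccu

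*Mir204* lies in *Trpm3* at chr19:22727969-22728036 and *Mir211* in *Trpm1* at chr7:63855554-63855659, both on the plus strand of GRCm39 (GENCODE M39). The seed match AAAGGGA was searched on the sense strand of the 3′-UTR of 1 canonical transcript per gene. It occurred in *Kcnj10*, *Dio2* and *Slc1a3*, that is in 3 of the 9 genes with a 3′-UTR to search, and in 16.05% of 20718 such transcripts of all genes. The 3′-UTRs of these genes are long. Among transcripts of like 3′-UTR length, 33.2% held a match for *Kcnj10*, 36.6% for *Dio2* and 22.3% for *Slc1a3*. The windows below are read 5′ to 3′ on the strand of the gene, with the match in capitals, and in none of them was the match followed by an A.
Kcnj10, match at chr1:172200526-172200532, plus strand: cagactttaacAAAGGGAcaaatattttg
Kcnj10, match at chr1:172200636-172200642, plus strand: tgcttgatggaAAAGGGAgggctagaccc
Dio2, match at chr12:90694120-90694126, minus strand: ttgtctggggaAAAGGGAtaatggggaaa
Slc1a3, match at chr15:8664613-8664619, minus strand: ccaacattacaAAAGGGAggattctttga

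A match is a stretch of letters and not a measured site. *Kcnj10* and *Dio2* were too low in RPE cells for the dKO comparison there, and the values of *Slc1a3* in RPE cells follow with the other genes.

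The first comparison asked in which cell types the genes were high. Levels are CPM, the UMIs of a gene scaled to an equal total for each sum over the cells of a type in a mouse, given as the mean ± SD over mice, and are compared between cell types and not between genes. All 10 genes were higher in Müller glia than in the other 9 types together, from which astrocytes were left out, by 2.79-fold for *Slc38a3* and by 78.0-fold to 125-fold for the rest. Against RPE cells, 9 of 10 were higher in Müller glia, while *Car14* was 1.73-fold lower. Among all 15190 genes tested against the other types, 69.4% were called, 34.0% higher and 35.5% lower in Müller glia, and among 11614 against RPE cells 64.4% were called, 34.1% higher and 30.3% lower (edgeR's quasi-likelihood test with the mouse as a block, adjusted p under 0.05). The median log2 difference of the 10 genes was 6.5 against the other types and 6.21 against RPE cells, beside -0.03 and 0.06 over all genes tested. The 10 genes were chosen as Müller glia genes with earlier results of these data known, so their height in Müller glia is no independent result. Scaling by library size moved these medians of all genes to -0.21 and 0.32, and the share of called genes that were higher from 48.9% to 37.9% and from 53.0% to 66.5%, while all 10 genes kept their direction and their call.

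**Figure D1:**
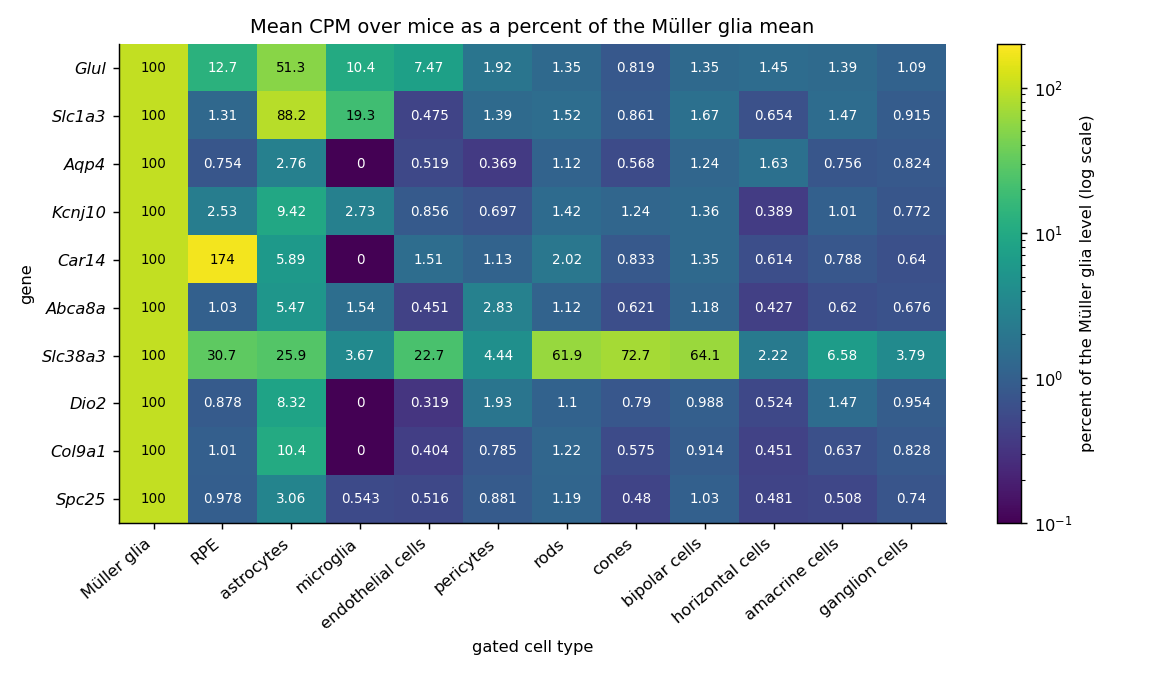
Mean CPM of each gene over mice in 12 gated cell types, as a percent of its Müller glia mean (color, log scale; the number in each cell is the percent). *Car14* stood at 174% in RPE cells, *Slc1a3* at 88.2% and *Glul* at 51.3% in astrocytes, and *Slc38a3* at 61.9% to 72.7% in rods, cones and bipolar cells.

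The glutamate genes differed in how widely they were shared. *Slc1a3* (chr15:8663604-8741595, minus strand) encodes the glutamate transporter GLAST. It had 1306 ± 200 CPM (n = 9) in Müller glia and 1152 ± 209 CPM (n = 5) in astrocytes, and the ranges of these types overlapped. Of the 84 cells gated as astrocytes, 48 also passed the Müller gate, and their part in the astrocyte levels of these genes was not tested. Microglia followed with 252 ± 183 CPM (n = 2), and the remaining types lay at 0.475% to 1.67% of the Müller level. Its log2 difference between Müller glia and RPE cells was 5.98 (SE 0.30, adjusted p = 5.63e-11). *Glul* (chr1:153775690-153785469, plus strand), the glutamine synthetase that turns the glutamate into glutamine, had 5959 ± 1302 CPM in Müller glia and 3056 ± 1271 CPM in astrocytes, again with overlapping ranges.

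In RPE cells *Glul* was far from background. It had 774, 702 and 772 CPM in the control mice S01, S02 and S03 and 853, 657, 800 and 738 CPM in the dKO mice S06, S07, S08 and S09, all below the lowest Müller value of 3513 CPM. The RPE level was 10.8-fold above the other 9 types (log2 difference 3.44, SE 0.16, adjusted p = 4.56e-16) and 7.51-fold under Müller glia (2.91, SE 0.19, adjusted p = 7.88e-10). Rods made up 15936 of the 23105 cells of these 9 types. Among the rest, microglia had 617 ± 265 CPM (n = 2), overlapping the RPE range, and endothelial cells 445 ± 73.5 CPM (n = 7). In that comparison of RPE cells with the other types 67.3% of 16236 genes were called, 29.7% higher and 37.6% lower, and 3 of the 10 genes were called, all higher. The calls were *Car14*, *Glul* and *Spc25*, whose difference of 0.72 (adjusted p = 0.0323) was 0.17 without S06 (adjusted p = 0.617), 0.65 without S07 (adjusted p = 0.0916) and -0.27 without the RPE cells rich in *Dkk3* described further on. Scaling by library size moved the median of all genes from -0.15 to -0.59 and the higher share of calls from 44.2% to 27.7%. A share of 94.1% of RPE cells held a *Glul* UMI, against 73.7% of amacrine cells, a type with a low level, at median depths of 17325.5 and 25033 UMIs. After each cell was thinned to 3000 UMIs, with 60 RPE cells and 4 amacrine cells too shallow and left out, the shares were 83.2% and 20.9%, beside 98.9% of Müller cells.

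*Slc38a3* (chr9:107527815-107547018, minus strand), the transporter SNAT3 that carries glutamine across the membrane, had the flattest profile of the 10 genes. Its Müller level of 490 ± 30.9 CPM was followed by cones with 357 ± 53.4, bipolar cells with 314 ± 51.2 and rods with 304 ± 44.0 CPM. The Müller range did not overlap that of cones, while cones, bipolar cells and rods overlapped in turn. RPE cells had 151 ± 26.2 CPM (n = 7), astrocytes 127 ± 35.6 and endothelial cells 111 ± 45.2, whereas amacrine, ganglion and horizontal cells, pericytes and microglia stayed at 2.22% to 6.58% of the Müller level. At 3000 UMIs per cell, 73.7% of Müller cells and 56.2% of rods held a UMI, and 7.11% of amacrine cells (94.5%, 69.4% and 35.8% unthinned). Compared with RPE cells, the Müller level was 2.90-fold higher (log2 difference 1.54, SE 0.14, adjusted p = 7.67e-08).

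Of the listed partners in glutamate recycling, 6 of 7 could be tested. Against the other types 3 were called higher in Müller glia and 2 lower, with a median log2 difference of 0.24, and against RPE cells 3 were higher and 3 lower. Here and in the lists below, such counts stand beside 34.0% of all genes called higher and 35.5% lower against the other types. Against RPE cells these shares of all genes were 34.1% and 30.3%. *Slc1a2*, the glutamate transporter GLT-1, was higher in Müller glia than in RPE cells by 3.48 on the log2 scale, with 1029 CPM against 81.1. *Slc1a1*, the neuronal transporter EAAC1, had 1127 CPM in RPE cells and 10.1 in Müller glia, a log2 difference of -7.23. The RPE cells of these mice thus held *Glul* beside *Slc1a1*, and Müller glia held it beside *Slc1a3* and *Slc1a2*.

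The potassium and water genes stood alone in Müller glia. *Kcnj10* (chr1:172168765-172201652, plus strand) encodes the inward rectifier channel Kir4.1, through which potassium leaves the glial endfeet. It had 281 ± 46.0 CPM in Müller glia and 26.5 ± 30.0 CPM in astrocytes, and no other type exceeded 2.73% of the Müller level. *Aqp4* (chromosome 18 from 15522451 to 15544039, minus strand), the water channel of the same endfeet, had 730 ± 108 CPM in Müller glia and 20.1 ± 27.6 CPM in astrocytes. For both genes the Müller range overlapped that of no other type. Their log2 differences from RPE cells were 5.96 (SE 0.32) and 6.72 (SE 0.40).

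Among 10 partners of potassium and water handling, 8 were tested against the other types, of which 4 were higher in Müller glia and 2 lower, and 7 against RPE cells, of which 6 were higher and 1 lower. *Dtna*, the dystrobrevin of the complex that anchors both channels, was 2.17 higher on the log2 scale than in RPE cells. *Kcnj16*, the Kir5.1 subunit that can pair with Kir4.1, reached only 0.136 CPM in Müller glia. *Aqp1*, the water channel of other epithelia, was lower than in the other types by 2.96 on the log2 scale.

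*Car14* (chr3:95805079-95812646, minus strand), a membrane-bound carbonic anhydrase that interconverts carbon dioxide and bicarbonate at the cell surface, was the only one of the 10 genes with a higher level in RPE cells. Its RPE values were 677, 632 and 640 CPM in S01, S02 and S03 and 533, 999, 804 and 1304 CPM in S06, S07, S08 and S09. The Müller values of the same mice were 678, 463 and 456 CPM and 412, 344, 434 and 775 CPM. RPE cells were above Müller glia in 6 of 7 mice, and in S01 the levels were 677 and 678. The log2 difference of Müller glia from RPE cells was -0.79 (SE 0.15, adjusted p = 2.70e-04), and -0.75 without S07.

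Elsewhere *Car14* was low. RPE cells stood 153-fold above the other 9 types (log2 difference 7.26, SE 0.18) and Müller glia 82.4-fold (6.36, SE 0.16). Astrocytes had 27.1 ± 25 CPM. After thinning, 77.5% of RPE cells, 66.2% of Müller cells and 2.25% of rods held a UMI (91.3%, 92.5% and 3.99% unthinned). Of 9 partners in acid and lactate handling, 4 of 8 tested were higher and 3 lower in Müller glia than in the other types, and 3 of 7 were higher and 4 lower than in RPE cells. *Car2*, the cytosolic carbonic anhydrase, was higher in Müller glia by 4.6 on the log2 scale, whereas *Slc4a4*, a sodium bicarbonate cotransporter, *Slc16a1*, the lactate transporter MCT1, and its chaperone *Bsg* were lower, with differences of -2.20, -2.42 and -1.16. *Car14* thus had high RPE levels together with *Slc4a4*, *Slc16a1* and *Bsg*, and without *Car2* (8.53 CPM).

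*Dio2* (chr12:90691322-90705819, minus strand) encodes the deiodinase that makes the active thyroid hormone T3 from T4. It had 447 ± 331 CPM in Müller glia and 37.2 ± 51.1 CPM in astrocytes, and no further type passed 1.93% of the Müller level. Of the 7 thyroid partners, 5 were tested. Against the other types 4 were higher and 1 lower in Müller glia, and against RPE cells 2 were higher and 2 lower. *Crym*, a cytosolic protein that binds T3, was higher by 5.75 and by 5.44 on the log2 scale, while the hormone transporter *Slco1c1* was 3.74 above the other types and had a difference of -1.79 from RPE cells. The other deiodinases were near 0 in Müller glia, with 0.179 CPM for *Dio1* and 0.846 CPM for *Dio3*.

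*Abca8a* (chr11:109916460-109986869, minus strand), *Col9a1* (chr1:24216691-24291765, plus strand) and *Spc25* (chr2:69009753-69036574, minus strand) had like profiles across the types. *Abca8a*, a member of the ABCA family of membrane transporters, had 2505 ± 275 CPM. *Col9a1*, a chain of type IX collagen, had 919 ± 107 CPM. *Spc25*, a subunit of the Ndc80 complex that ties chromosomes to the spindle in dividing cells, had 949 ± 212 CPM. In astrocytes these genes reached 5.47%, 10.4% and 3.06% of the Müller level, and in the 9 other types at most 2.83%, 1.22% and 1.19%. Their log2 differences from RPE cells were 6.53 (SE 0.32), 6.43 (SE 0.41) and 6.43 (SE 0.35).

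The partners of these 3 genes differed from each other. All 5 ABCA relatives were higher in Müller glia than in the other types, led by *Abca8b* with 5.82 and *Abca6* with 5.42 on the log2 scale. *Abca8a*, *Abca8b* and *Abca9* are related genes, and whether the counting split reads between them was not tested. Of 5 collagen partners 4 were higher than in the other types, among them *Col2a1* with 6.72 and *Col9a2* with 5.88. *Col9a3*, the third chain of type IX collagen, had 31.7 CPM in Müller glia and 447 CPM in RPE cells. The kinetochore partners of *Spc25* were nearly absent from Müller glia, with 0.0508 CPM for *Ndc80*, 0.204 for *Nuf2* and 0.0842 for *Spc24*, and of 3 of 8 that could be tested 0 were higher and 1 was lower. None of 6 genes of dividing cells had counts enough to be tested, the highest being *Cdk1* with 0.258 CPM.

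Overlapping transcription limits some of these values. *Glul* overlaps *Teddm2*, *Car14* overlaps *Aph1a* and *Spc25* overlaps *Nostrin* on the opposite strand. *Nostrin* itself had a log2 difference of -0.15 between Müller glia and the other types (adjusted p = 0.483), beside 6.97 for *Spc25*. In addition, *Slc1a3*, *Aqp4*, *Kcnj10* and *Dio2* overlap long noncoding RNAs on the opposite strand. Whether the counting used strand is not given in the sources used here, so reads of such pairs may not be told apart.

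Across the 12 types, the genes with profiles most like the mean profile of the 10 were *Gm49470* (Pearson r = 0.977), *Lrrc66* (0.970), *Il33* (0.963), *Frzb* (0.961) and *Gm13613* (0.958), out of 6661 genes with at least 20 CPM in Müller glia. These correlations of log2(CPM + 1) describe 12 points that share libraries and depth. Of the 10 genes themselves, *Spc25* (0.971) and *Kcnj10* (0.965) followed the mean most closely and *Slc38a3* (0.585) least. Each of the 10 is part of that mean, so their r values cannot be set beside those of genes outside it.

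The second comparison asked whether the genes differed in Müller glia between dKO and control mice. None of the 10 was called, as 0 of 13506 genes were called in either direction (0%, edgeR). Unadjusted, 2.18% of the genes and 1 of the 10 had p under 0.05. DESeq2 also called 0 genes, and edgeR 0 of 13580 without S04, S05 and S07. The median log2 fold change of the 10 genes was -0.16, beside 0.00 over all genes. Cells gated as Müller glia made up 6.48% ± 3.79 of the cells of control mice and 7.30% ± 4.95 of the cells of dKO mice, a difference of 0.818 percentage points that did not exceed the spread (exact permutation test, two-sided, p = 0.833, smallest possible 0.00794). Without S04, S05 and S07 the means were 8.37% and 10.9% (exact permutation p = 0.1, the smallest that 3 against 3 mice can give), and without S04 alone the difference was -1.07.

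**Figure D2:**
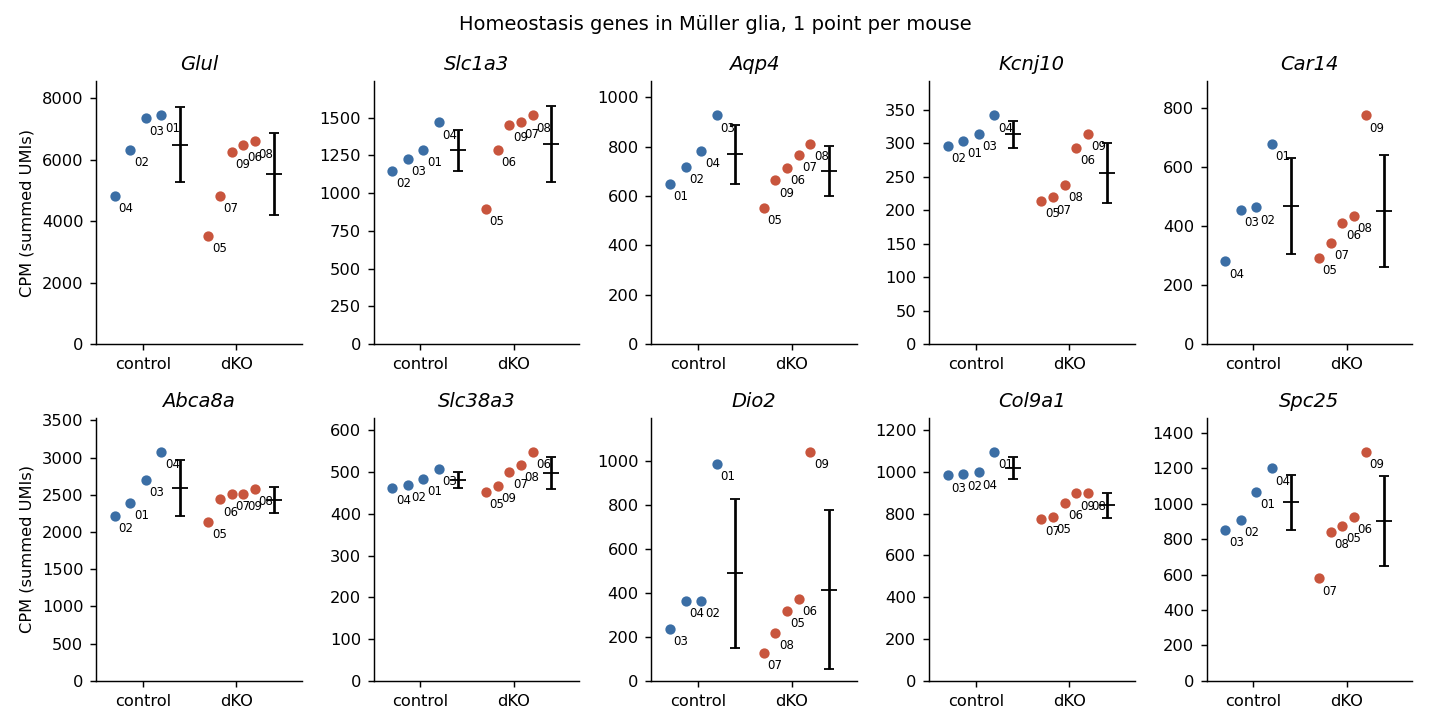
CPM of each gene in Müller glia, 1 point per mouse (numbered), with the mean ± SD of the 4 control and 5 dKO mice. *Col9a1* is the one panel in which the groups do not overlap, and *Dio2* is high only in S01 and S09.

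*Slc1a3* had 1288, 1145, 1229 and 1468 CPM in the control mice S01 to S04 and 897, 1287, 1474, 1515 and 1452 CPM in the dKO mice S05 to S09. S05 was lowest and the groups overlapped (log2 fold change 0.03, 95% interval -0.31 to 0.38). *Glul* had 7445, 6330, 7346 and 4834 CPM in control and 3513, 6477, 4831, 6603 and 6255 CPM in dKO mice. Here the rod-rich mice S04, S05 and S07 were the lowest of both groups, and the part of their rod RNA in this was not tested. The fold change was -0.25 (interval -0.71 to 0.20), and -0.13 without them. *Slc38a3* had 484, 469, 507 and 463 CPM in control and 453, 548, 501, 518 and 467 CPM in dKO mice, all within 1.21-fold of each other. Its spread over mice was 1.47 times what counting alone gives, and its interval, -0.19 to 0.23, was the narrowest of the 10 genes.

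*Kcnj10* had 303, 296, 313 and 341 CPM in control and 213, 293, 219, 238 and 314 CPM in dKO mice. S05, S07 and S08 lay below every control mouse, S06 just below and S09 among them. The log2 fold change was -0.30 (SE 0.14, unadjusted p = 0.0526, adjusted p = 1), and -0.12 without S04, S05 and S07. *Aqp4* had 647, 717, 926 and 782 CPM in control and 551, 713, 765, 810 and 663 CPM in dKO mice. The groups overlapped, with a fold change of -0.16 (interval -0.47 to 0.15).

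*Car14* and *Dio2* varied most between mice. *Car14* had 678, 463, 456 and 281 CPM in control and 291, 412, 344, 434 and 775 CPM in dKO mice, with S01 and S09 highest. *Dio2* had 985, 365, 237 and 364 CPM in control and 316, 373, 127, 219 and 1039 CPM in dKO mice. The same mice, S01 and S09, stood highest, and the other 7 mice did not pass 373 CPM. The spread of *Dio2* was 15.7 times what counting alone gives, and the highest mouse had 8.19 times the lowest. The fold changes were -0.09 (interval -0.74 to 0.56) for *Car14* and -0.24 (interval -1.45 to 0.98) for *Dio2*. For *Dio2* it was 0.41 without S01 and -0.98 without S09.

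*Abca8a* had 2388, 2215, 2700 and 3073 CPM in control and 2134, 2436, 2508, 2579 and 2516 CPM in dKO mice, with overlapping groups and a log2 fold change of -0.11 (interval -0.36 to 0.14). *Spc25* had 1066, 910, 853 and 1199 CPM in control and 876, 924, 579, 843 and 1291 CPM in dKO mice. The highest and the lowest mouse were both dKO mice, and the fold change was -0.16 (interval -0.60 to 0.27). *Col9a1* had 1095, 991, 983 and 998 CPM in control and 785, 851, 774, 897 and 897 CPM in dKO mice. Every dKO mouse lay below every control mouse, which 0.444% of all genes tested also showed in this direction and 0.985% in either. The means were 1017 ± 52.3 (n = 4) and 841 ± 59.2 CPM (n = 5), and the log2 fold change of -0.30 (SE 0.10, unadjusted p = 0.0121) did not pass the adjustment (edgeR, adjusted p = 1). Without S04, S05 and S07 it was -0.22.

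As 0 of all 13506 genes were called in Müller glia, 0 were called in any of the 9 partner lists, which adds no separate result. Of the 6 genes of dividing cells 0 were tested. Over the lists with tested genes, the median log2 fold change ran from -0.12 for the ABCA transporters to 0.40 for the kinetochore list. Partners of *Col9a1* had a median log2 fold change of 0.11 and the 8 genes of reactive gliosis, of which 6 were tested, 0.15. *Gfap*, a gene of the gliosis list, is also a marker of the astrocyte gate. Cells rich in it could thus leave the Müller gate, so this list cannot show whether *Gfap* changed in Müller glia. On simulated counts with the same mice and 13506 genes, the test recovered 54% of genes changed 2-fold and 90% of genes changed 4-fold, with 15 false calls among 159.

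The third comparison asked the same of the RPE cells, in which Cre is driven. None of the 7 genes that could be tested was called there, as 0 of 9708 genes were called (0%, edgeR; DESeq2 also 0). *Aqp4*, *Kcnj10* and *Dio2* were removed by the filter on low counts. Unadjusted, 5.09% of genes and 5 of the 7 had p under 0.05, each of the 5 with a higher level in dKO mice. Of these, *Col9a1* and *Spc25* passed the filter in only 5 of the 7 fits with 1 mouse left out. They fell under it without the dKO mouse S06, among others, so high dKO counts brought them into the test. The 5 of 7 can therefore not be set against the 5.09%. Without S07, 0 of 10187 genes were called. A part of the counts of 4 of these 5 genes, *Slc1a3*, *Abca8a*, *Col9a1* and *Spc25*, lay in a few cells, as given next.

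**Figure D3:**
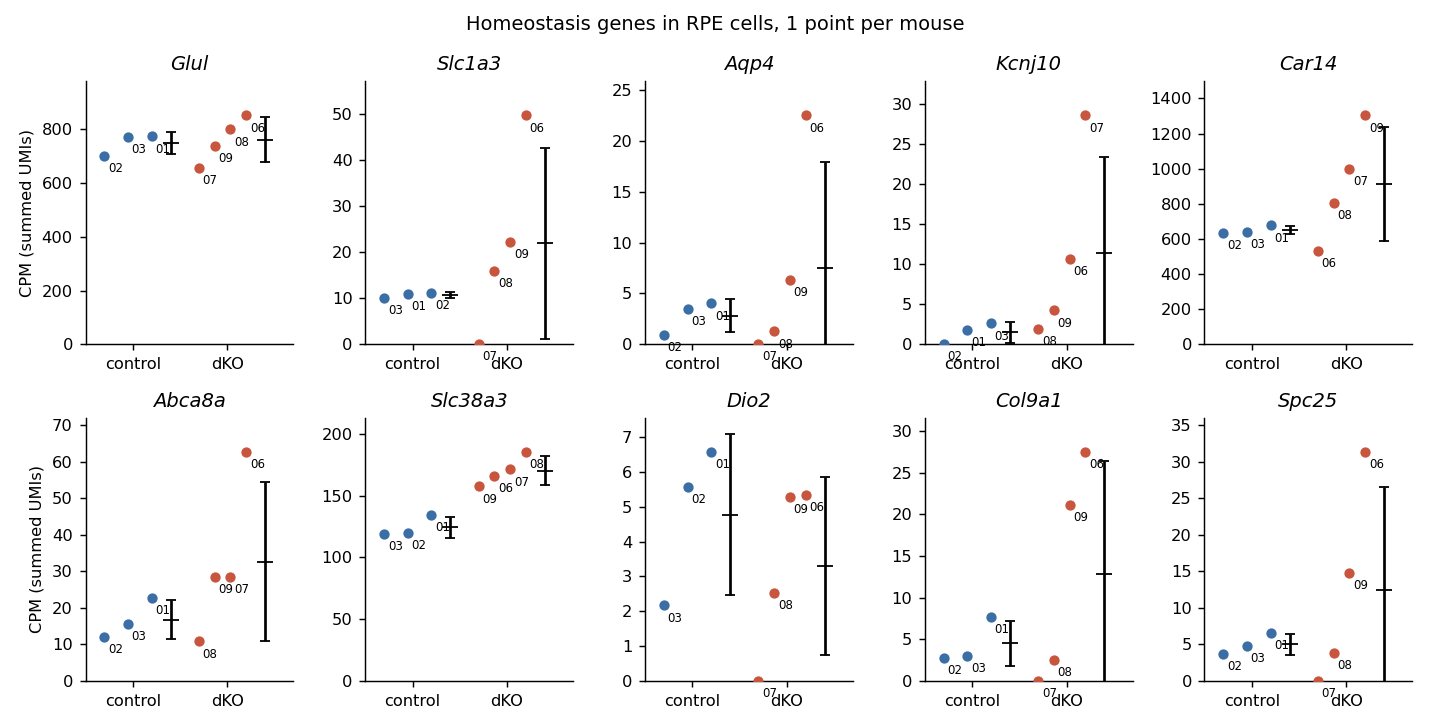
CPM of each gene in RPE cells, 1 point per mouse (numbered), with the mean ± SD of 3 control and 4 dKO mice. S06 is the highest mouse for *Slc1a3*, *Aqp4*, *Abca8a*, *Col9a1* and *Spc25*, and *Slc38a3* separates the groups.

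*Slc1a3* had 10.9, 11.2 and 9.98 CPM in the control mice S01 to S03 and 49.6, 0, 15.9 and 22.2 CPM in the dKO mice S06 to S09, where 0 UMIs in S07 allow up to 85.7 CPM. S06 was highest and the groups overlapped through S07. The log2 fold change was 1.48 (SE 0.38, unadjusted p = 0.00141, adjusted p = 0.599, edgeR), 0.78 without S06 and 1.52 without S07. *Abca8a* had 22.6, 12.1 and 15.6 CPM in control and 62.6, 28.5, 10.8 and 28.5 CPM in dKO mice. S06 was again highest and S08 the lowest of all, and the fold change of 1.01 (SE 0.43) was 0.12 without S06.

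*Col9a1* had 7.66, 2.79 and 3.04 CPM in control and 27.5, 0, 2.54 and 21.1 CPM in dKO mice, and *Spc25* had 6.57, 3.72 and 4.77 CPM in control and 31.3, 0, 3.81 and 14.8 CPM in dKO mice. S06 and S09 were high and S08 was as low as the controls. Their log2 fold changes were 1.78 (SE 0.59, adjusted p = 0.747) and 1.69 (SE 0.54, adjusted p = 0.714), and without S06 both fell under the filter. The direction of *Col9a1* in RPE cells was thus opposite to that in Müller glia, with a difference of the effects, over the 7 mice with RPE values, of 1.91 (SE 0.67, unadjusted p = 0.0111, adjusted p = 0.901). Without the filter on low counts the difference was 1.93 and was called (edgeR, adjusted p = 0.00149). That call rests on 127 UMIs of *Col9a1* in RPE cells. A single cell of S06, which also held 80 UMIs of the Müller marker *Dkk3*, gave 45 of them, so no opposite effect can be read from it. Of 13059 genes, 0 were called in this test of the difference (0%), and 586 had an unadjusted p under 0.05, while DESeq2 also called 0. On simulated counts this test recovered 16% of genes changed 2-fold and 77% of genes changed 4-fold, with 20 false calls among 113.

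Of the genes below the filter, *Kcnj10* had 1.82, 0 and 2.60 CPM in control and 10.7, 28.6, 1.90 and 4.23 CPM in dKO mice, where the value of S07 is 1 UMI. *Aqp4* had 4.01, 0.930 and 3.47 CPM in control and 22.5, 0, 1.27 and 6.34 CPM in dKO mice, and *Dio2* 6.57, 5.58 and 2.17 CPM and 5.35, 0, 2.54 and 5.29 CPM. In *Aqp4* the mouse S06 stood apart, and in *Dio2* no mouse did.

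The 7 genes that were low in RPE cells (*Slc1a3*, *Aqp4*, *Kcnj10*, *Abca8a*, *Dio2*, *Col9a1* and *Spc25*) gave 1009 UMIs over the 322 RPE cells, and 141 cells (43.8%) had 0. A single cell of S06 with 104729 UMIs held 340 of them (33.7%), and a second cell of S06 held 95, so that this pair held 79.2% of the UMIs of these genes in S06. The next cells were 1 of S01 with 83 and 1 of S09 with 52. The leading cell also held 80 UMIs of *Dkk3* and 40 of *Gpr37*, markers of Müller glia, beside 463 of *Rpe65*. Over all RPE cells, *Dkk3* was at 104 CPM in S06 and at 21.5 to 85.7 CPM in the other mice, beside 2135 to 2722 CPM in Müller glia, and the 6 further Müller markers summed to 200 to 607 CPM in RPE cells of the 7 mice and 5028 to 7436 CPM in Müller glia. After thinning to 3000 UMIs, 1.53% to 7.25% of RPE cells held a UMI of a given one of the 7 genes, beside 1.11% to 6.73% of rods and 0.799% to 5.72% of amacrine cells, so these shares were near those of types with a low level. Unthinned, they were 6.83% to 27.0%, 2.15% to 11.4% and 5.63% to 25.5%, at median depths of 17325.5, 4689 and 25033 UMIs.

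**Figure D4:**
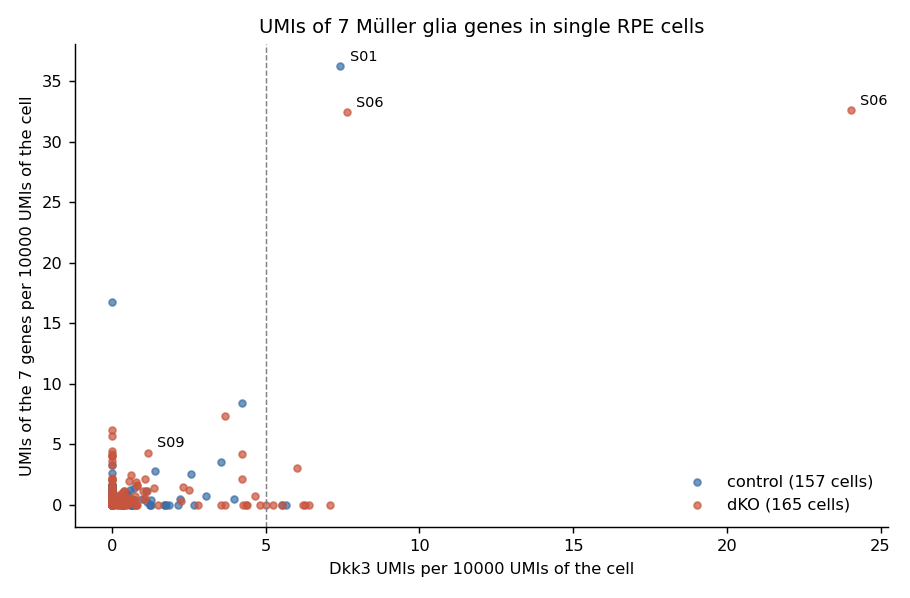
Single RPE cells by their *Dkk3* UMIs (x axis) and their UMIs of the 7 genes low in RPE (y axis), both per 10000 UMIs of the cell, in 157 control and 165 dKO cells. The dashed line marks 5 *Dkk3* UMIs per 10000, and the 4 cells with the most UMIs of the 7 genes are labeled by mouse.

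When the 13 RPE cells with at least 5 *Dkk3* UMIs per 10000 were left out, a choice made after seeing the data, the fold change of *Slc1a3* was 0.75 and that of *Abca8a* 0.18, and *Col9a1* and *Spc25* fell under the filter. The values of *Slc38a3*, *Car14* and *Glul* were then 0.43, 0.46 and 0.03, beside 0.44, 0.42 and 0.01 over all RPE cells.

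*Slc38a3*, *Car14* and *Glul* are the genes that RPE cells held in most cells. *Slc38a3* had 134, 120 and 119 CPM in control and 166, 171, 185 and 158 CPM in dKO mice. Every dKO mouse lay above every control mouse, which 2.14% of all genes tested showed in this direction, 3.66% in the opposite one and 5.80% in either. The means were 125 ± 8.48 (n = 3) and 170 ± 11.6 CPM (n = 4), with a log2 fold change of 0.44 (SE 0.17, unadjusted p = 0.0227, adjusted p = 0.870), 0.46 without S06 and 0.46 without S07. In Müller glia of all 9 mice *Slc38a3* had a fold change of 0.02, and the difference of the effects, fitted on the 7 mice with RPE values, was 0.31 (SE 0.30, unadjusted p = 0.311).

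*Car14*, with the RPE values given above, was higher than every control mouse in S07, S08 and S09 and lower in S06. Its log2 fold change was 0.42 (SE 0.27, interval -0.15 to 0.995), 0.62 without S06 and 0.09 without S09. *Glul* did not separate the groups, with means of 749 ± 40.9 and 762 ± 84.3 CPM and a fold change of 0.01 (interval -0.44 to 0.46). On counts of 9708 genes simulated in the same way, the test recovered 57% of genes changed 2-fold and 90% of genes changed 4-fold. It made 21 false calls among 168, and these shares too are those of genes picked at random.

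**Figure D5:**
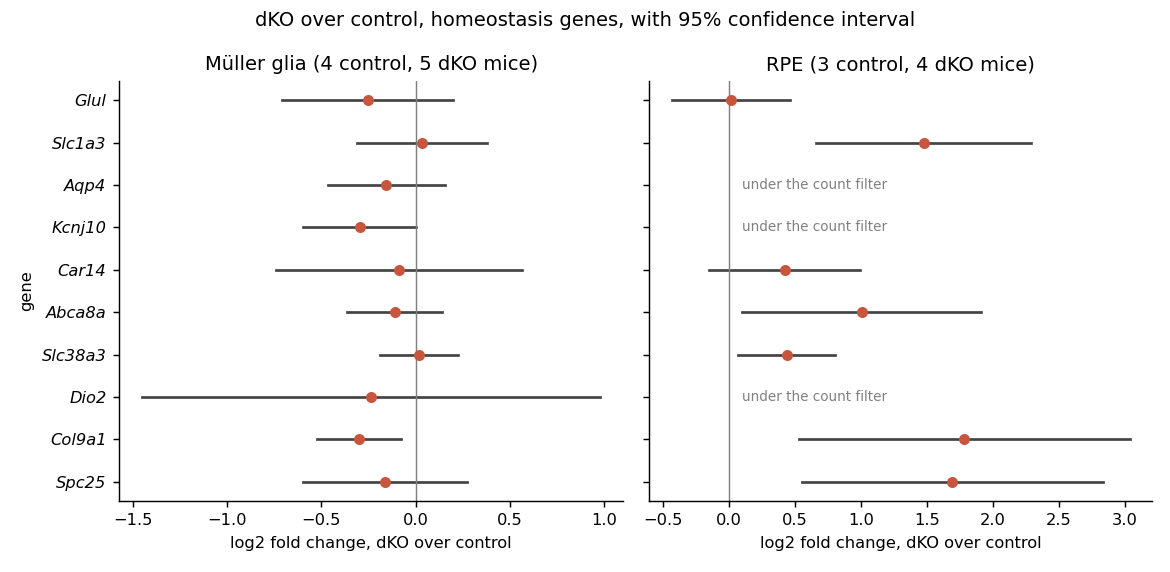
Log2 fold change of dKO over control mice with its 95% confidence interval for each gene in Müller glia and in RPE cells (edgeR). In Müller glia the intervals of all genes but *Col9a1* reach 0, and in RPE cells those of *Slc1a3*, *Abca8a*, *Slc38a3*, *Col9a1* and *Spc25* lie above 0 before adjustment.

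In the other 9 types together, the 10 genes had log2 fold changes from -0.00 for *Glul* to 0.28 for *Aqp4*, with a median of 0.15 beside -0.00 over all genes. None was called, and 0 of 18597 genes were (0%, edgeR; 148 at an unadjusted p under 0.05, and DESeq2 also 0).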

How the data were processed

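Retinas of 4 control and 5 dKO mice were measured by single-cell RNA-sequencing with split-pool barcoding (Evercode). By the methods of the study, the authors mapped reads to GRCm39 with split-pipe, filtered out sparse cells and rarely seen genes, and worked in R 4.2.2 and Seurat 4.3.0, versions per the labels. The deposited values are raw UMI counts per gene and cell from before any normalization, and the deposited tables name no cell types.

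A cell was gated to a type when its UMIs of that type's markers reached a minimum per 10000 UMIs and enough markers were detected, which for Müller glia and RPE meant 16 UMIs and 3 markers. The Müller markers were *Rlbp1*, *Dkk3*, *Sox9*, *Vim*, *Apoe* and *Clu*, and the RPE markers *Rpe65*, *Best1*, *Lrat*, *Rdh5* and *Rrh*. The 244 cells that passed both of these gates were called RPE, and the 48 that passed both the Müller and the astrocyte gate were called astrocytes. Astrocytes were kept out of the sum over the other 9 types. The 1270 cells that passed the gates of other combinations of types and the 4073 that passed none were left out. No doublet caller was run, and free RNA was not removed.

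UMIs were summed per mouse and type, and mice with at least 10 cells of a type entered a fit. Groups and types were compared on these sums by the quasi-likelihood test of edgeR (edgeR 4.0.16, R 4.3.3, TMM, filterByExpr) with Benjamini-Hochberg adjustment over all genes tested. Comparisons of types took the mouse as a block, since both sums come from the same animal, and the difference of dKO effects was tested as an interaction. In the sums, fewer RNA molecules per cell cannot be told from a different mix of cells within a gate. The share of Müller cells was compared with an exact permutation test. Intervals and limits cover counting error or the spread between mice only, as named. The totals per mouse limit the precision, and S07 with 35022 RPE UMIs and S04 with 22 Müller cells have the smallest sums. Large cells also weigh on the RPE sums. In S09, 1 of 42 RPE cells held 292866 of 945908 UMIs, while the median cell had 3027, so its total overstates its precision.

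Partner genes were taken from 9 lists (glutamate recycling, potassium and water, acid-base and lactate, thyroid hormone, ABCA transporters, collagen partners, kinetochore, dividing cells, reactive gliosis). The 10 genes are named throughout, and of a list the direct partners or paralogs and the highest and lowest, except some that are not reported here. The genes and lists were chosen with earlier results of these data known. Positions and 3′-UTRs come from GENCODE M39. *Glul* had no 3′-UTR to search on its canonical transcript. The fits were tested on simulated data. Alternatives were DESeq2 1.42.0, scaling by library size, a fit without the filter on low counts, gate thresholds halved and doubled, a second set of gate markers, cells highest in UMIs or in rod RNA left out, S06 and S07 summed as 1 mouse, no block, and each mouse left out.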

Additional observations from a re-analysis of the deposited data

Results flagged for a closer look

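Within 32 groups of 4 or 5 mice, 3 had a highest or lowest mouse far from the rest by Dixon's criterion, where chance gives about 1 in 20 groups. In Müller glia, dKO mouse S09 had 1039 CPM of *Dio2*, while the next dKO mouse had 373. The control mouse S01 had 1095 CPM of *Col9a1* in Müller glia, and the next control mouse had 998. For the share of cells in the Müller gate, control mouse S04 had 0.812%, below the 8.09% of the next control mouse. S04 is 1 of the 3 rod-rich mice, and the part of rod content in its share was not tested.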

How the results depend on the processing

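The 10 genes kept their direction and their call in the comparisons of Müller glia with RPE cells and with the other types under all alternatives run (180 and 190 values), the fit with no replicate block included, where 7609 and 10244 genes were called in place of 7483 and 10544 and, for RPE cells against the other types, 10919 in place of 10924. Between the groups, no paired analysis was possible because no label ties a dKO mouse to a control mouse. Leaving out S04, S05 and S07 together or the RPE cells rich in *Dkk3* was chosen after seeing the data. The count of genes called for dKO in RPE cells was 69 without a filter on low counts (*Slc1a3*, *Col9a1* and *Spc25* among them) and 0 to 7 with 1 mouse left out. In Müller glia it was 0 to 1 with 1 mouse left out. For the difference of the effects it was 78 without a filter (*Col9a1*, *Spc25* and *Aqp4* among them, adjusted p = 0.00149, 0.0481 and 0.0486), 1 with the second set of gate markers, 2 without the top 5% of cells by UMIs, and 0 to 1 with 1 mouse left out. *Aqp4*, with 87 UMIs in RPE cells, was under the filter of the RPE fit, so its call carries no weight. *Col9a1* and *Spc25* passed that filter in only 5 of the 7 fits with 1 mouse left out, and not without S06. The difference in the share of Müller cells ranged from -1.07 to 2.27 percentage points with 1 mouse left out. Few molecules limit the RPE values: the 7 low genes rest on 1009 UMIs. The cause of the changes of direction that follow was not tested.

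For dKO in Müller glia, *Car14* was 0.0056 with the gate threshold doubled, 0.0015 with S06 and S07 summed, and 0.026 without S04, S05 and S07, which also gave 0.038 for *Abca8a*, 0.054 for *Dio2* and 0.11 for *Spc25*. With 1 mouse left out, the ranges that crossed 0 were -0.030 to 0.16 for *Slc1a3*, -0.41 to 0.14 for *Car14*, -0.014 to 0.062 for *Slc38a3* and -0.98 to 0.41 for *Dio2*. In RPE cells *Glul* was -0.015 without a filter, -0.039 with the threshold halved, and -0.058 to 0.10 with 1 mouse left out. For the difference of the effects, *Abca8a* was -0.12 with the threshold halved, and *Dio2* was -0.015 with it doubled, -0.012 with it halved, -0.23 without the top 5% of cells, and -0.33 to 0.67 with 1 mouse left out. *Dio2* passed the filter of that fit through its Müller counts alone, with 52 UMIs in RPE cells, so these values carry no weight.

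For RPE cells against the other types, the direction of the low genes and of *Slc38a3* depended on the setting. The halved threshold gave calls of a higher level for *Slc1a3* (0.90), *Aqp4* (0.996), *Kcnj10* (1.30), *Abca8a* (1.31), *Col9a1* (1.40) and *Spc25* (1.47), with adjusted p from 5.50e-05 to 0.0112. *Slc1a3*, *Abca8a* and *Col9a1* were also called higher without the top 5% of cells, *Abca8a* and *Col9a1* without S02 or S08, and *Col9a1* without S03. In the other direction, *Aqp4* was called lower without the RPE cells rich in *Dkk3* (adjusted p = 0.00588) and *Slc38a3* with library size (adjusted p = 0.0360). Library size gave -0.099 for *Slc1a3*, -0.28 for *Aqp4*, -0.29 for *Slc38a3* and -0.32 for *Dio2*. No filter gave -0.040 for *Aqp4*, -0.094 for *Slc38a3* and -0.095 for *Dio2*. The doubled threshold gave -0.10 for *Slc1a3*, -0.44 for *Aqp4*, -0.13 for *Kcnj10*, -0.11 for *Abca8a*, -0.40 for *Dio2*, -0.058 for *Col9a1* and -0.032 for *Spc25*. DESeq2 gave -0.58 for *Aqp4*, -0.098 for *Slc38a3*, -0.073 for *Dio2* and -0.066 for *Col9a1*. Leaving out the RPE cells rich in *Dkk3* gave -0.37 for *Slc1a3*, -1.08 for *Aqp4*, -0.47 for *Kcnj10*, -0.24 for *Abca8a*, -0.20 for *Dio2*, -0.18 for *Col9a1* and -0.27 for *Spc25*. With 1 mouse left out, the ranges were -0.030 to 0.48 for *Slc1a3*, -0.70 to 0.43 for *Aqp4*, -0.18 to 0.72 for *Kcnj10* and -0.0087 to 0.18 for *Slc38a3*.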
